A study of Caenorhabditis elegans with 2 samples.

Results

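The genes described here are the neuropeptide and insulin-like genes of Caenorhabditis elegans, chosen by name as the protein-coding genes called flp-, nlp- or ins- followed by a number. There are 140 of them among 19973 protein-coding genes, comprising 71 nlp, 38 ins and 31 flp genes. Their relation to sites of the MADF-domain protein MADF-8 was measured by chromatin immunoprecipitation with sequencing (ChIP-seq). Both samples, biological replicates of 1 group, were whole worms of strain RW12322, in which a CRISPR insertion (st12322) on chromosome III extends MADF-8 with TY1, eGFP and 3xFLAG. The worms were young adults of 64 hours, synchronised as starved first-stage larvae after bleaching, and their sonicated chromatin was immunoprecipitated through the GFP tag. Every worm carried the tagged allele and the study has no second condition, so the values below describe where sites lie and how far the 2 replicates share them, with no test between groups. Only sites, and no reads, are in the files, which leaves library depth unknown. In chromatin from whole worms, a site used in few cells and no site at all cannot be told apart.

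Neuropeptides are cut from longer precursors by proprotein convertases, often amidated at the C terminus, packed into dense core vesicles and released to act on G protein-coupled receptors. In worms the flp genes encode precursors of FMRFamide-like peptides, the nlp genes a heterogeneous group of other neuropeptide-like precursors, and the ins genes relatives of insulin that act as ligands or antagonists of the receptor DAF-2. Many are made in small sets of neurons, while some, such as nlp-29 and its neighbours, are known from the epidermis or the gut. By name alone no member can be shown to encode an active peptide. The X chromosome held 34 members, chromosome II 28, V 23, I and IV 19 each, and III 17. The flp genes were the most X-linked, with 13 of 31 on X, against 19 of 71 nlp genes and 2 of 38 ins genes. The ins genes were concentrated on II (15) and I (10).

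The sequences that the results turn on are these, read from WBcel235 (ce11) on the strand of the gene, 5′ to 3′. The site nearest upstream of a member lies before nlp-36, at chrIII:9488190-9488258 on the plus strand. The best-scoring candidates before nlp-50 and flp-16 are shown by the bases around their summits, chrII:6764836-6765033 and chrII:13234846-13235046, both on the plus strand. That before flp-23, chrIII:8650282-8650482 on the plus strand, has the bases of a tRNA gene in capitals. The last 2 are the only members whose promoters hold either of the 2 words chosen below as common at MADF-8 sites. The word is in capitals, at chrII:9692383-9692483 for nlp-11 and chrX:4592664-4592764 for flp-12, both on the minus strand.
nlp-36 closest site: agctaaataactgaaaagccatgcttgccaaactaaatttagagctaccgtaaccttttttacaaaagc
nlp-50 best candidate: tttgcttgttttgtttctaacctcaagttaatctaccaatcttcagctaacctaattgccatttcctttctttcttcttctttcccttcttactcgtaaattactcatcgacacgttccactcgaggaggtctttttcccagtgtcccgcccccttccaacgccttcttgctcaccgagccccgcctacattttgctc
flp-16 best candidate: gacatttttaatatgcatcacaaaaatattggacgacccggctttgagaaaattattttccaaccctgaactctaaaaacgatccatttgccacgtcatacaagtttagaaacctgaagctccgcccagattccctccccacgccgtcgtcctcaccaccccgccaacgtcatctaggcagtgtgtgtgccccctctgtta
flp-23 best candidate: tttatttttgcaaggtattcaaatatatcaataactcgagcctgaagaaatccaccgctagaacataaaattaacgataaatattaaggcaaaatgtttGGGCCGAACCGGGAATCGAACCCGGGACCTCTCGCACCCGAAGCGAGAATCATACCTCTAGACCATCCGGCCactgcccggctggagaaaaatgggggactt
nlp-11 word: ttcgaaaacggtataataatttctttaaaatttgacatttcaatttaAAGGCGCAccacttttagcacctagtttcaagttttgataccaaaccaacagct
flp-12 word: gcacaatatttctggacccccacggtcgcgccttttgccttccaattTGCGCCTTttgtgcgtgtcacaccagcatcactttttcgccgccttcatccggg

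No neuropeptide or insulin-like gene had a MADF-8 site at its promoter. A gene was called bound when a site's summit fell between 500 bp before and 100 bp after any start of its protein-coding transcripts. In the thresholded set that the authors made from both replicates, 0 of 140 members were bound, with an upper 95% Wilson limit of 2.67%, while 6.97% of all protein-coding genes were. The count was also 0 in the companion conservative set, where 6.92% of all genes were bound. It was 0 in the set of replicate 1, against 5.24%, and 0 in the set of replicate 2, against 6.04%. By family, 0 of 31 flp genes gave an upper limit of 11.0%, 0 of 71 nlp genes one of 5.13% and 0 of 38 ins genes one of 9.18%. These limits cover counting over genes only, and genes that lie together are not independent.

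Sites were scarce on X, with 55 of them against 327 to 419 on each autosome, and 24.3% of members are X-linked against 13.7% of all genes. The 0 was therefore also read within chromosome classes. On autosomes 0 of 106 members were bound, with an upper limit of 3.50%, against 7.95% of all autosomal genes. On X it was 0 of 34, with an upper limit of 10.2%, against 0.769% of X-linked genes, a background too low for 34 genes to show a difference.

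The members also differed from bound genes in how their promoters are built. A divergent neighbour, here the start of a gene on the other strand within 1000 bp upstream, was present at 11 members (7.86%), at 18.2% of all genes and at 49.1% of bound genes. No flp gene had one. The median gap to the next gene upstream was 2523 bp for members, 941 bp for all genes and 552 bp for bound genes, and it was widest in the flp genes at 5186 bp. Among autosomal genes with a divergent neighbour 19.6% were bound, and 0 of the 11 members of that kind were. Among autosomal genes without one 5.02% were bound, and 0 of 95 members were. Among autosomal genes whose upstream gap was at least the members' median, 3.85% were bound and 0 of 50 members were. Where the gap was shorter, 9.24% were bound and 0 of 56 members were. No intervals were computed for these layout classes, so no count of 0 in them is shown to differ from the share beside it. GC content of the promoter was similar, with medians of 36.6% for members, 34.6% for all genes and 35.6% for bound genes. Sequence copies took little of the promoters, since only 7 members (5.00%) had under 90% of their window in unique 31-base words, against 11.4% of all genes. These were ins-16, ins-19, ins-31, ins-36, ins-37, nlp-64 and nlp-81. The part of promoter layout in the count of bound members was described by these classes only and was not tested.

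**Figure D1:**
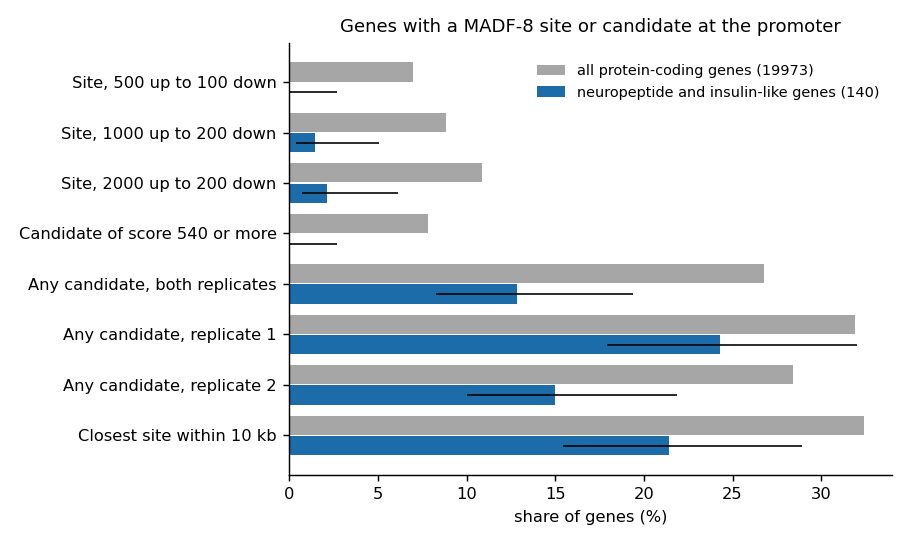
Share of genes (%, horizontal axis) that meet each rule for a site, a candidate or a nearby site, for the 140 members (blue, with 95% Wilson intervals) and all 19973 protein-coding genes (grey). The blue bar is absent for sites in the main window (500 bp before to 100 bp after a start) and for candidates of score 540 or more, where no member was called.

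Sites came close to a few members with their summits outside the promoter window. With a window of 1000 bp before to 200 bp after a start, 2 members were called, nlp-36 and ins-37, while the share of all genes was 8.82%. With 2000 bp before to 200 bp after it the count was 3, with nlp-12 added, against 10.9%. With a narrower window of 200 bp before to 100 bp after it the count was 0, against 3.56%. Asking only that the site overlap the main window gave nlp-36 and ins-37 again, against 7.64% of all genes. Only ins-37 had a site within its transcribed body, as did 2.59% of all genes. Members are shorter, with a median gene length of 888 bp against 2027 bp for all genes.

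A site present in all 4 sets lay before nlp-36, a neuropeptide-like gene on chromosome III. Its summit was 508 bp upstream of the start, which puts it 8 bp outside the main window. The site was 69 bp wide, intergenic, entirely in unique sequence, and nlp-36 had the nearest coding start. The authors' signal for it was 188.5 in the set of both replicates, and 27.7% of the sites of that set were stronger. It had the top score of 1000 in each single replicate, with a signal of 104.1 in replicate 1 and 83.3 in replicate 2, and its summit stayed within 506 to 513 bp of the start in all 4 sets.

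The site at ins-37, an insulin-like gene on chromosome II, rested on 1 replicate. It lay at chrII:13835804-13836079, with its summit 165 bp downstream of the start in an exon outside the coding sequence. Its signal in the set of both replicates was 87.4, and 73.5% of sites were stronger. In replicate 2 it scored 1000 with a signal of 45.3, while in replicate 1 the overlapping candidate scored 30 with a signal of 36.2. The closest site of the replicate 1 set was 36562 bp away. The same bases carry a noncoding gene named R05D7.8, whose start is 26 bp from the summit and whose name the annotation gives to 3 genes. Only 43.5% of the site was unique at 31 bases, so reads from another copy cannot be told apart there. A second site lay 1568 bp downstream of the ins-37 start, 562 bp past the gene's end, with a score of 904. It scored 577 in replicate 1 and 377 in replicate 2, below the 830 that the sets require.

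Around nlp-12, which encodes cholecystokinin-like peptides known for their part in locomotion, 3 sites lay outside the promoter. A pair of overlapping sites followed the gene on chromosome I, with summits 45 bp and 262 bp past its end and signals of 84.7 and 18.4. The first had 75.6% unique sequence. The candidate under both scored 598 in replicate 1 and 996 in replicate 2, so it passed in replicate 2 alone. The upstream site, 1359 bp before nlp-12 with a signal of 102.6, was 420 bp from the start of the next gene, emr-1, which encodes the nuclear membrane protein emerin.

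The strongest site within 1000 bp of a member followed nlp-4, another neuropeptide-like gene of chromosome I. It lay 840 bp from the start and 106 bp past the end of the gene, with a signal of 297.0, which 14.7% of sites exceeded. Its signal was 143.4 in replicate 1 and 165.9 in replicate 2, with a score of 1000 in both. The start of a small nucleolar RNA gene, F59C6.15, was 65 bp from its summit. Among all members, nlp-12, nlp-4, ins-37 and nlp-36 were the 4 (2.86%) with a site within 1 kb, against 9.66% of all genes.

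**Figure D2:**
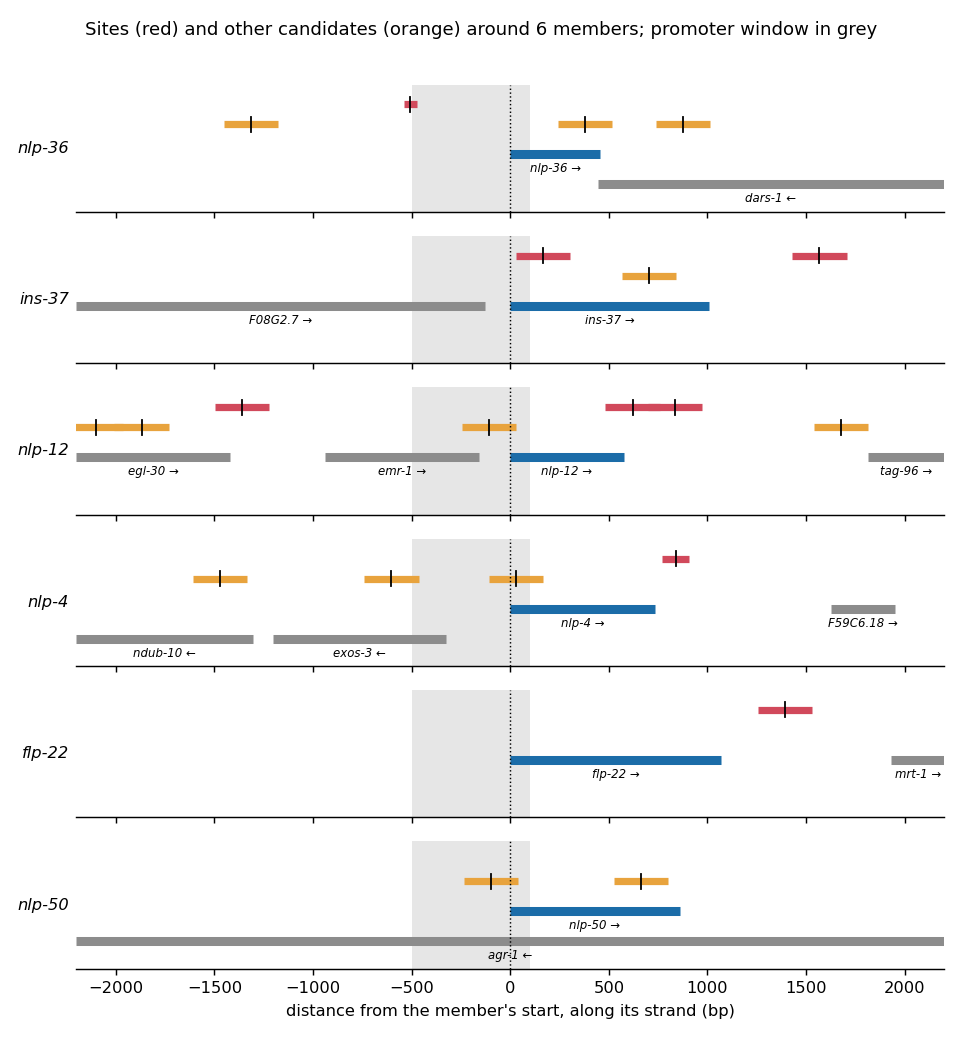
Sites of the set of both replicates (red), other candidates of the ranked list (orange) and protein-coding genes (blue for the member, grey for others, with the direction of transcription) by distance in bp from the start of 6 members; black ticks are summits. The promoter window (grey) holds no red summit in any of them, and the summit of the site before nlp-36 is 8 bp short of it.

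Farther out, the site closest to a member often had another gene's start next to it, as for most genes at large. In 5 members (3.57%), flp-24, ins-37, nlp-12, nlp-36 and nlp-40, the member's own start was the nearest coding start to its closest site, against 8.59% of all genes. The closest site was upstream in 67 members, past the gene's end in 72 and within the body in 1. The site closest to flp-22 was 1395 bp from its start and 537 bp from that of mrt-1, a gene needed for telomerase activity. That of ins-17 was 1914 bp away with a signal of 232.7, and lay 260 bp from rps-1, a ribosomal protein gene. That of flp-1, whose peptides modulate locomotion, was 2448 bp away with a signal of 409.6, and lay 292 bp from rpb-12, an RNA polymerase subunit gene. The neighbours ins-15 and ins-14 shared 1 site, 3059 bp and 4125 bp away, whose summit was 2 bp from the start of exos-8. The site closest to flp-14, 5310 bp upstream, was 291 bp from cox-5A, a cytochrome c oxidase subunit gene. For nlp-40, a gut peptide gene of the defecation rhythm, the closest site was 1921 bp away and 187 bp past the gene's end, with a signal of 183.6.

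Some of these distances depended on the replicate. The site 4453 bp from flp-28 on X had a signal of 86.1 in the set of both replicates, yet the closest sites of the single sets were 203870 bp away in replicate 1 and 203928 bp away in replicate 2. For ins-15 the distance was 3079 bp in replicate 2 and 32084 bp in replicate 1. By contrast, nlp-4, nlp-36, nlp-40, ins-17 and flp-1 had their closest site at nearly the same place in all 4 sets.

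The median distance from a member to its closest site was 26341 bp, against 21301 bp for all protein-coding genes. On autosomes it was 23718.5 bp against 17418 bp. The autosomal difference was small in the set of replicate 1 alone, at 25170 bp against 24288.5 bp, and with the stronger sites only, at 32047 bp against 31359 bp. The order did not hold on every chromosome. Members lay farther from sites than genes at large on I (22106 bp against 12493.5 bp), II (25159.5 against 14428), III (22135 against 11183) and IV (36010 against 19682). They lay closer on V (22804 against 28491.5) and on X (84791 against 129649). Within 5 kb there were 15 members (10.7%) against 21.5% of all genes, and within 10 kb 30 members (21.4%) against 32.4%. On autosomes alone 27 of 106 members (25.5%) had a site within 10 kb, against 36.4%.

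By family, the median distance was 22135 bp for flp, 22260 bp for nlp and 46523.5 bp for ins. The ins genes span 165 bp, at ins-37, to 76999 bp, at ins-18, and ins-27 was 73883 bp away. The 17 members over 100 kb from any site comprised 16 on X and 1 on V. The farthest were nlp-6 at 553500 bp and nlp-101 at 498265 bp, both on X, and the farthest flp genes were flp-7, known for control of fat loss, at 367303 bp and flp-32 at 232707 bp.

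**Figure D3:**
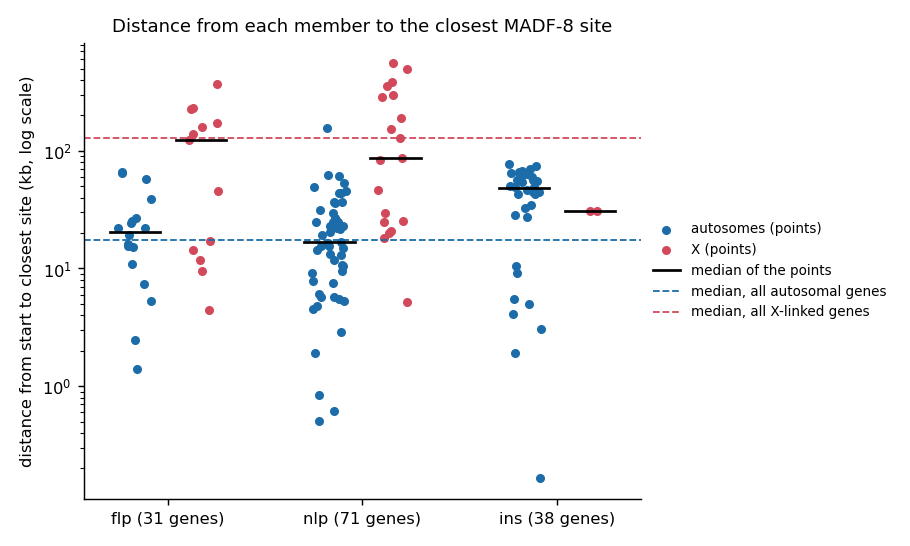
Distance from the start of each member to the closest site of the set of both replicates (kb, log scale), by family, for autosomal (blue) and X-linked (red) members, with the median of each column as a black bar. Dashed lines give the medians of all autosomal (17418 bp) and all X-linked (129649 bp) genes, and the 38 ins genes sit mostly above the autosomal line.

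Members that lie in arrays shared their surroundings. Taking members up to 5000 bp apart as 1 cluster gave 12 clusters with 35 members, so their distances are not separate observations. The 4 genes ins-27, ins-24, ins-30 and ins-26 on I lay 63776 to 73883 bp from a site. The array of nlp-34, nlp-31, nlp-30, nlp-29, nlp-28 and nlp-27 on V, which holds peptide genes known from the epidermal response to infection, lay 15406 to 25650 bp away. ins-4, ins-5 and ins-6 on II lay 44819 to 48889 bp away, and ins-21, ins-22 and ins-23 on III 60404 to 64899 bp away. On X, nlp-45, nlp-22, nlp-23 and nlp-2 lay 18315 to 24771 bp away, and flp-28, flp-3 and flp-2 lay 4453 to 11711 bp away. Of the 35 clustered genes only nlp-34 and flp-2 had a candidate at the promoter in the ranked list of both replicates. The share was 26.8% of all genes and 21.3% of genes without a site.

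The authors also deposited ranked lists of candidates, which reach below the threshold of the sets. Each candidate has a scaled score that rises as the irreproducible discovery rate (IDR) falls. The score alone did not define a set, since the list of both replicates held 2064 candidates of 830 or more and its set 1972 sites. Genes without a site had candidates of up to 1000 in that list. At the lowest score of the sets, 830, the deposited IDR was about 0.0100, and at 540 it was about 0.0501. No member had a candidate of score 540 or more at its promoter in any of the 4 ranked lists. The shares of all genes were 7.82% in the list of both replicates, 7.8% in the list behind the conservative set, 6.16% in replicate 1 and 6.78% in replicate 2. The highest member scores were 488 in the list of both replicates, 505 in the list behind the conservative set, 240 in replicate 1 and 519 in replicate 2.

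A candidate of any score was present at 18 members (12.9%, 95% Wilson interval 8.29 to 19.4%) in the list of both replicates, against 26.8% of all genes. In the list behind the conservative set there were 33 (23.6%) against 32.9%. Replicate 1 had 34 (24.3%) against 31.9%, and replicate 2 had 21 (15%) against 28.4%. The intervals for the list of both replicates and for replicate 2 lay below the share of all genes. So did that for the list behind the conservative set, 17.3 to 31.2%. That for replicate 1, 17.9 to 32.0%, reached the share of all genes. All genes include the bound ones, and no member was bound, so these gaps partly repeat the main count. Among genes without a site, 21.3% had a candidate in the list of both replicates and 23.1% in replicate 2. The members' upper limits, 19.4% and 21.8%, lay below these. In the list behind the conservative set and in replicate 1 the shares without a site, 27.9% and 26.9%, fell inside the members' intervals. Candidates in the ranked lists of both single replicates occurred at 10 members (7.14%) against 17.9%. That share and those by chromosome class that follow also include bound genes. On autosomes 13 of 106 members had a candidate in the list of both replicates against 27.9%, and on X 5 of 34 against 19.6%. The autosomal interval, 7.31 to 19.9%, lay below its share of all genes, while that on X, 6.45 to 30.1%, held its share. By family the counts were 7 of 31 flp genes (22.6%), 9 of 71 nlp genes (12.7%) and 2 of 38 ins genes (5.26%). The flp share lay between the 21.3% of genes without a site and the 26.8% of all genes. The nlp and ins shares lay below both.

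How the scores of candidates at members compared with those at other genes depended on the list. In the list of both replicates the median at members was 60.5, above the 54 over genes with a candidate and no site. It was below the 89 over all genes with a candidate, which include bound genes. In replicate 1 the median was 14, the lowest score of that list, against 43 over all genes and 31 over those without a site. In replicate 2 it was 16, also the lowest, against 53 and 36. In the list behind the conservative set it was 45, against 66 and 46, so there the members were level with other genes without a site. Of the 18 members, 7 had a candidate in both single replicates, 5 in replicate 1 alone, 4 in replicate 2 alone and 2 in neither. Their summits lay upstream of the start in 11 and downstream in 7. In all, 89 members (63.6%) had no candidate in any of the 4 ranked lists, against 52.3% of all genes, and 45 (32.1%) were listed in at least 1 single replicate, against 42.3%. Bound genes are included in these shares of all genes.

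The highest score belonged to nlp-50 on II, with 488 in the list of both replicates, 480 in the list behind the conservative set and 377 in replicate 2. Replicate 1 listed nothing there. The summit lay 98 bp upstream of nlp-50, inside an intron of agr-1, the gene for agrin, and the IDR was 0.0665. Of all candidates 8.56% scored higher. The printed bases around that summit are 45.5% G and C.

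On X, nlp-64 scored 322 in the list of both replicates and 240 in replicate 1, with no candidate in replicate 2 or in the list behind the conservative set. The whole promoter window of nlp-64 is 62.0% unique at 31 bases. The unique share of the candidate itself was not computed, so whether reads from another copy counted in it is unknown. For flp-16 on II the scores were 275 in the list of both replicates, 505 in the list behind the conservative set, 83 in replicate 1 and 65 in replicate 2, at 360 bp upstream. This was the highest flp score in the list of both replicates.

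The candidate of flp-23 on III, 385 bp upstream, scored 519 in replicate 2, 217 in the list of both replicates and 43 in the list behind the conservative set, with none in replicate 1. Its summit fell on the end of the tRNA gene F22B7.t5, at chrIII:8650381-8650452 on the minus strand. The capitals in the sequence above are the 72 bp of that gene, read from its other strand. For nlp-4 on I, the summit was 30 bp downstream of the start and the scores were 197, 321, 117 and 138 in the list of both replicates, the list behind the conservative set, replicate 1 and replicate 2. For nlp-12, with the summit upstream of the start, they were 129, 135, 93 and 83 in that order. These 2 genes thus had low scores at the promoter in every list, beside the stronger sites past their ends.

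The other 12 members scored 88 or less in the list of both replicates. flp-18, which encodes ligands of the receptor NPR-1, scored 88, nlp-56 79, flp-10 64, flp-1 57, ins-28 54, flp-2 48 and nlp-15 46. nlp-34, nlp-49, ins-39, flp-13 and nlp-33 had the lowest score of the list, 23, which 14640 of its 32380 candidates share. For flp-1 the list behind the conservative set gave 197, and for ins-28 replicate 2 gave 113. flp-13, known for its part in stress-induced sleep, and nlp-33, of the epidermal peptide genes, were listed in neither single replicate.

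**Figure D4:**
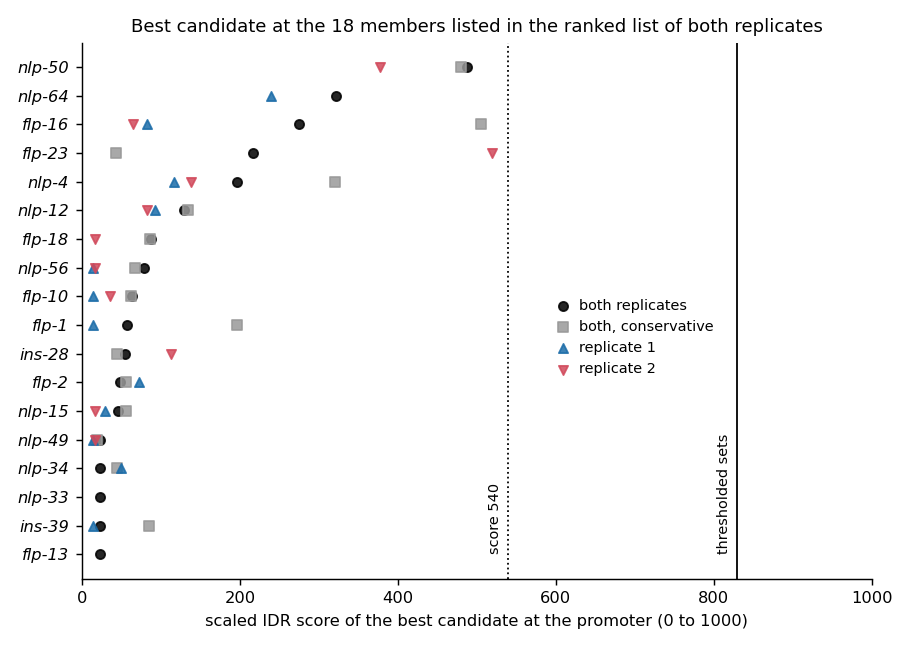
Scaled IDR score of the best candidate at the promoter (horizontal axis, 0 to 1000) for the 18 members in the ranked list of both replicates, by list (shape and colour); a missing mark means no candidate in that list. All points lie left of 540 (dotted) and of the 830 (solid) of the thresholded sets, with nlp-50 highest in the list of both replicates at 488.

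Of the members, 2 held either of 2 chosen sequence words that are common at MADF-8 sites. In windows reaching 50 bp to each side of the summits of the 1137 sites at promoters, 8-base words were tallied on either strand. The words were ranked by the difference from 18581 windows at genes without a site. Those windows are not the whole promoter windows behind the shares of genes below, so the 2 kinds of share are not comparable. The first 2 words that share no run of 6 bases were AAGGCGCA and GCGAGACC. AAGGCGCA was in 11.5% of sites and 0.463% of the 18581 windows, and GCGAGACC in 10.6% and 0.307%. They were chosen on these sites, so their share at bound promoters is a description. AAGGCGCA occurred at the promoters of nlp-11 and flp-12 (1.43% of members), 3.16% of all genes and 16.1% of bound genes. GCGAGACC occurred at no member, 2.55% of all genes and 13.1% of bound genes. With either word the shares were 1.43% of members, 5.06% of all genes and 24.9% of bound genes.

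At nlp-11 the word lay 494 bp upstream and no ranked list had a candidate in the window. At flp-12 it lay 364 bp upstream, read there as its reverse complement TGCGCCTT. flp-12 had a candidate of score 16 in replicate 2 and of score 19 in the list behind the conservative set, the lowest of each list. The closest site was 24883 bp from nlp-11 and 140238 bp from flp-12. The site before nlp-36 and the bases shown for nlp-50, flp-16 and flp-23 hold neither word. A match is a run of letters and not a binding site.

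Other genes of peptide production, release and reception, and of insulin signalling, were counted in 6 lists. The other peptide genes, such as daf-28 and pdf-1, were bound in 0 of 8, and the genes for precursor processing and amidation, such as the convertase gene egl-3 and the carboxypeptidase gene egl-21, in 0 of 13. Of genes for dense core vesicles and release 2 of 26 (7.69%) were bound, and of genes for insulin signalling 2 of 18 (11.1%), beside the 6.97% of all genes. Of the peptide receptors outside the large families 0 of 28 were bound, and of the npr, frpr and dmsr receptor families 0 of 79. The highest candidate score among these receptors was 253, at frpr-19, and that of the named receptors outside the families was 148, at egl-6. The lists were made with earlier results of these data known. X-linked were 4 of the 8 other peptide genes, 1 of 13 processing genes, 7 of 26 release genes and 4 of 18 insulin signalling genes. So were 14 of the 28 receptors outside the large families and 23 of the 79 family receptors. Of all X-linked genes 0.769% were bound.

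Among the insulin signalling genes, daf-2, the insulin and IGF receptor gene, had a site at chrIII:3040822-3041097, 114 bp upstream of a start, with a signal of 155.5 that 35.9% of sites exceeded. It scored 1000 in each replicate and its nearest coding start was that of daf-2. The bases around this summit, chrIII:3040860-3041060 on the minus strand, hold neither word and are shown because it is the site at the receptor of the ins ligands.
daf-2 promoter site: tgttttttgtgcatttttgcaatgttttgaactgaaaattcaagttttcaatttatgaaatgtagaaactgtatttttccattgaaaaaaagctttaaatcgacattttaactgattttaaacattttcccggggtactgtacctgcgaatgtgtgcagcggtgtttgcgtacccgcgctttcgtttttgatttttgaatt
daf-2 was bound in all 4 sets, and 0 of 38 ins ligand genes were bound in any of them. The shares of all genes were 6.97% in the set of both replicates, 6.92% in the conservative set, 5.24% in replicate 1 and 6.04% in replicate 2. The upper limit for the ins genes in the set of both replicates, 9.18%, lay above its 6.97%. No contrast between receptor and ligand genes can be drawn from these counts.

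In the release list the bound genes were unc-31 and vps-51. unc-31 encodes CAPS, which primes dense core vesicles for fusion, and its site at chrIV:12786969-12787244 had a signal of 138.4. The summit lay in an intron of unc-31, 353 bp before an internal start, so it was not at the first promoter. vps-51, a subunit gene of a vesicle tethering complex, had a site 287 bp upstream on I with a signal of 128.7, but the nearest coding start, 131 bp away, was that of lin-35, the worm retinoblastoma gene. Both scored 1000 in each replicate.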

How the data were processed

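Per the labels, the samples are 2 biological replicates of 1 group. The authors deposited ranked candidates and a set thresholded on the IDR for each replicate and for the pair, on assembly ce11. Those of the pair come from both replicates together. Control files were not analysed here. Neither aligner nor peak caller is named in the sources used here. As deposited, the score is a scaled IDR score of up to 1000, with 830 the lowest in each set. The deposited −log10 of the global IDR was converted to an IDR. The signal was deposited as 1 value per site by the authors, with its scaling not given, and was used only to describe or order the sites of 1 list. Summits were taken from the deposited offset. In the 2 ranked lists of the pair, 16 columns were left out because no sample is named for them.

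Genes and starts came from Ensembl release 115. The reference is WBcel235, the same assembly as ce11, with chromosome lengths checked against the sites. Binding, distances and candidates were computed as given in the text, without tests, because there is 1 group. Wilson intervals at 95% cover counting over genes only. The members, the pathway lists and the words were chosen with earlier results of these data known. Of the symbols listed, rab-2, rab-27, cccp-2, nmur-4, gnrr-8, seb-2, sesr-2 and capr-1 had no match. Members named with values are those bound under any alternative, the 5 of each family with the highest candidate score, the 4 of each family closest to a site and the 2 farthest. The word matches, the clusters, the remaining candidates and flp-24 were named after their values were seen. The site of 1 further bound gene of the pathway lists is not reported here. The counting code recovered sites planted in simulated lists. The tools were pandas 2.3.3, numpy 2.4.6, scipy 1.17.1, matplotlib 3.10.9 and Python 3.11.15.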

Additional observations from a re-analysis of the deposited data

How the results depend on the processing

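Of 103 alternatives, 86 kept their value within the limits set and 17 moved it. The count of bound members, 0, became 2 when the window ran from 1000 bp before to 200 bp after a start, 3 when it ran from 2000 bp before to 200 bp after, and 2 when any overlap with the window counted. The count of all bound genes became 711 with the window of 200 bp before to 100 bp after, 2177 with that of 2000 bp before to 200 bp after and 825 with the stronger sites only. Below, the windows are named by their upstream limit, but those of 1000 and 2000 bp also reach 200 bp rather than 100 bp downstream. Processing genes became 1 (nep-1) with the 2000 bp window. Release genes became 0 with the 200 bp window, 1 with outermost starts only and 1 with each site given to the nearest gene only. Insulin signalling genes became 1 with the 200 bp window and 4 with the 2000 bp window, with skn-1 and eak-7 added. The share of all genes was 3.56% with the 200 bp window and 10.9% with the 2000 bp window. The other 3 lists had no bound gene in any setting. Members with a candidate became 33 in the other ranked list of the pair and 34 with the 1000 bp window, and with 1 replicate left out ranged from 21 to 34, the higher being without replicate 2. Members with a candidate of score 540 or more became 2 with the 1000 bp window. No share of all genes is given here for candidates in the 1000 bp window. The median distance became 48190.5 bp with the stronger sites only, against 39997 bp for all genes. The cause of each of these moves was not tested. No paired analysis was possible because there is 1 group. The depth of the libraries is unknown, so the weakest site that could have been seen is unknown too.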
